A study of Homo sapiens with 10 samples.

Results

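In C4-2BER cells, 12312 distal sites carried H3K27ac where the parental C4-2B line had H3K18ac but no H3K27ac peak. These sites, called members here, were chosen by the presence and absence of peaks in the 4 lists. A member is a C4-2BER H3K27ac peak that overlaps no C4-2B H3K27ac peak, overlaps an H3K18ac peak of each line by at least 1 bp, and lies more than 2 kb from any transcription start site (TSS) of a protein-coding or lncRNA gene. They make up 16.9% of the 72971 C4-2BER H3K27ac peaks, and the 4 lists together hold 537404 peaks. C4-2B is a human prostate adenocarcinoma cell line. C4-2BER was derived from C4-2B by continuous exposure to the androgen receptor inhibitor enzalutamide, is kept in the drug, and is labelled as neuroendocrine-like. Both lines were grown in RPMI with fetal bovine serum and fixed with disuccinimidyl glutarate and formaldehyde. ChIP-seq was run on 2 libraries per mark and line, 8 in all, with 1 input library per line. The comparison is between 1 resistant derivative and its parent, so the drug, the derivation and the cell state cannot be told apart.

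Acetylation of histone H3 at lysine 27 is placed by the acetyltransferases p300 and CBP and is widely used to tell active enhancers from primed or silent ones. Acetylation at lysine 18 is placed largely by the same enzymes and also marks active promoters and enhancers. Comparing both marks between a cell line and its derivative shows at which enhancers 1 mark is shared and the other differs.

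The authors merged the replicates before peak calling, so each list gives 1 pooled value per region, and all comparisons below are descriptions without a test between the lines. No read counts are given, so the sequencing depth is unknown. The background that the peak caller used, estimated from narrow and weak peaks, was higher in C4-2BER, by 1.35 times for H3K27ac and 1.42 times for H3K18ac. Acetylation below the caller's threshold leaves no peak, so absence of a peak is not absence of the mark. In bulk cells, a higher level of the mark per cell and a larger share of cells that carry it cannot be told apart. The neuroendocrine label was compared with promoter H3K27ac of marker genes. CHGA, CHGB, SCG2, SCG3, SRRM4 and INSM1 had no promoter peak in either line, whereas the promoter of ENO2, a neuronal enolase, reached 14.3-fold over background in C4-2BER against 4-fold in the parental line. SYP, the vesicle protein synaptophysin, went the other way, with 24 in C4-2B against 5.67 in C4-2BER. Weak promoter peaks of CHRNB2 and CELF3, 2.25 and 2.5, were found in C4-2B only. Of the 10 promoters of the neuroendocrine and synaptic list with a peak, 1 was increased in C4-2BER and 3 were decreased. A ratio past 2 or a peak in 1 line alone counted as a change. INSM1 is from the list of neural and neuroendocrine transcription factors, where 4 of 16 such promoters were increased and 2 decreased. Those 4 were weak peaks of 2.32 to 2.62 found in C4-2BER only. Over all protein-coding genes with a promoter peak, 4.69% were increased and 10.7% decreased. Promoters of these lists thus went both ways, and such small counts do not decide whether promoter H3K27ac followed the label. Promoters of the androgen targets KLK2 and TMPRSS2 had peaks in both lines, with 13.8 and 20 in C4-2BER against 20.3 and 21.5 in C4-2B.

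Sequences of strong members are shown as examples. The central 300 bases of 3 members are given below from GRCh38, each named by its nearest protein-coding gene. They are among the members of highest H3K27ac fold enrichment that overlap no exon. No run of 24 bases in them occurs at 10 or more places in the genome, counted on both strands. That was set by choice, because windows with such a run were left out. Repeated centres, defined below, were found in 18 of the 100 members of highest fold. Capitals mark a match to a motif searched below, CAATAAA of the HOX family, at base 214 of the FKBP1C window.
GLUD2 (chrX:121402363-121402662, plus strand): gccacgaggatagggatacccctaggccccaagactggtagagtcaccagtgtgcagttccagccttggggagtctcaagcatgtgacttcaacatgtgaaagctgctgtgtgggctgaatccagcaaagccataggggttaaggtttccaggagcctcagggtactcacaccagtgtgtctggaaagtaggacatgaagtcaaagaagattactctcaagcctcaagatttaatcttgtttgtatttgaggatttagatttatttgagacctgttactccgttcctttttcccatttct
FKBP1C (chr6:63160073-63160372, plus strand): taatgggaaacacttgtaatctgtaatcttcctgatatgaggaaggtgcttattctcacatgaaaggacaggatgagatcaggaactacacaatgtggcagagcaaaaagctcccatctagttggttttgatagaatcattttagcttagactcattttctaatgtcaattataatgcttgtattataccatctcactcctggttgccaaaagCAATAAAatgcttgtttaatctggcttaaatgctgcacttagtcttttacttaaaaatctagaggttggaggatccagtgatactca
RPS6KA1 (chr1:26612981-26613280, plus strand): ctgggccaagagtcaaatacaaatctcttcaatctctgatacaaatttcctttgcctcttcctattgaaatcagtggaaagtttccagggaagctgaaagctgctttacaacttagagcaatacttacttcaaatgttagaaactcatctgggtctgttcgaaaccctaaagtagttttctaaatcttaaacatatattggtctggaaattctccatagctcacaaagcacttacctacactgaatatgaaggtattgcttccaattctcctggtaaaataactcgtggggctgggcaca

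Over the members as a whole, DNA repeated in this sense was about as frequent as at distal sites with H3K27ac in both lines and less frequent than at mirrored sites, defined below. Taking points every 50 bp in the central 500 bp, at least 50% of the points had a run of 24 bases found at 10 or more places in 1966 members, which is 16% (95% Wilson interval 15.3 to 16.6). The share was 15.3% (14.8 to 15.7) at distal sites with H3K27ac in both lines. It was 20.6% (19.8 to 21.4) at the mirrored sites. Members with and without repeated centres had a median H3K27ac fold of 2.59 and 2.51 and a median H3K18ac log2 ratio of 0.18 and 0.13.

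The path from all peaks to the members shows how often new H3K27ac fell on older H3K18ac. Of the C4-2BER H3K27ac peaks, 26195 overlapped no C4-2B H3K27ac peak, which is 35.9% of the list and was used by the rule. Of these, 21423 were distal. The members were 57.5% of those distal peaks. A further 6768 peaks (31.6%) had H3K18ac in C4-2BER only, 635 (2.96%) had it in C4-2B only and 1708 (7.97%) had it in neither line. Over all 47482 distal C4-2BER H3K27ac peaks, members included, 36623 had H3K18ac in both lines, a larger share than 57.5%. Another 2383 peaks met every condition but lay within 2 kb of a TSS. For comparison, 24311 distal C4-2BER peaks with H3K18ac in both lines also had H3K27ac in C4-2B and are called shared sites. The rule with the lines exchanged gave 8991 mirrored sites, where H3K27ac was found in C4-2B only, so there were 1.37 members per mirrored site.

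Members were weak H3K27ac peaks. Fold enrichment, the ratio of ChIP signal to local background that the authors' caller gave, had a median of 2.52 at members (interquartile range 2.26 to 3.05, range 1.74 to 15.4), against 3.84 at shared sites and 2.65 at mirrored sites. The median member stood at the 28.2 percentile of the C4-2BER list, and 141 members (1.15%) reached the highest quartile of that list, which began at 6.29. The median −log10 q-value of members was 2.97, against 11.2 at shared sites. Members were also narrower, with a median width of 703 bp against 1344 bp at shared sites, and mirrored sites measured 492 bp. The ratio of members to mirrored sites turned with fold but not with the q-value. At a fold of at least 3 there were 3270 members and 2721 mirrored sites (1.2 per mirrored site), at 6 there were 178 and 254 (0.701), and at 8 there were 29 and 73 (0.397). When H3K27ac peaks under 3-fold were dropped from both lists before the rule was applied, the ratio was 0.982 (0.947 to 1.02). When peaks with a −log10 q-value below 5 were dropped instead, it was 2.01 (1.93 to 2.09).

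**Figure D1:**
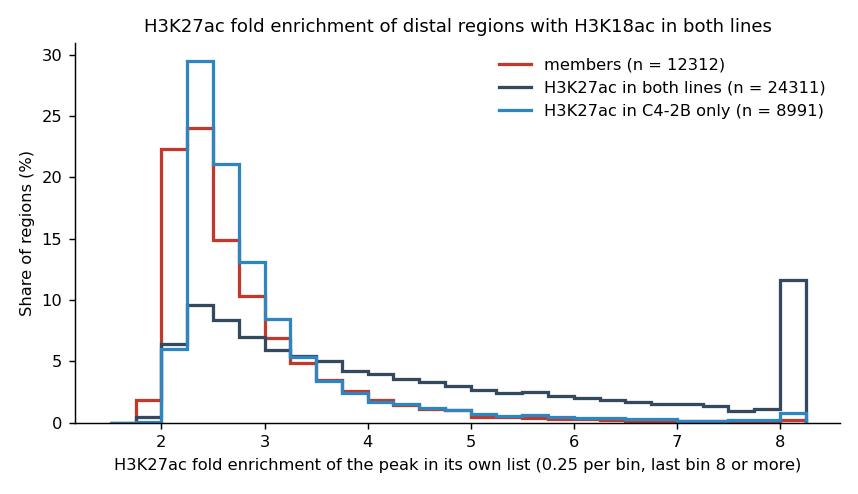
Share of regions (%) by H3K27ac fold enrichment for the 12312 members, 24311 shared sites with H3K27ac in both lines and 8991 mirrored sites with H3K27ac in C4-2B only; the last bin holds all folds of 8 or more. Members and mirrored sites pile up between 2 and 3, while 11.6% of the shared sites reach 8 or more.

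Values on either side of the limits of the rule were close for the TSS limit. The 353 members with a TSS up to 500 bp beyond the 2 kb limit had a median fold of 2.51, and 351 peaks excluded with one up to 500 bp inside it had 2.46. The 182 members with a C4-2B H3K27ac peak under 500 bp away had a median of 2.26, whereas 7996 distal peaks that overlapped one by under 500 bp had 3. The latter are part of the 24311 shared sites and include peaks that span a whole narrow C4-2B peak. The 2 sets are therefore not alike in their distance from this limit. The 206 members with under 100 bp of C4-2B H3K18ac had 2.29, and 59 peaks that missed it by under 100 bp had 2.26.

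H3K18ac itself was slightly higher in C4-2BER at the members. The rule used its presence in both lines but not its level. The median fold enrichment of H3K18ac at members was 2.79 in C4-2B (interquartile range 2.51 to 3.15) and 3.14 in C4-2BER (2.72 to 3.68). The log2 ratio of C4-2BER over C4-2B had a median of 0.14 (95% order-statistic interval 0.13 to 0.15, interquartile range −0.07 to 0.38), and it was above 0 at 8272 members (67.2%). The ranges of the lines overlapped widely. Shared sites had a median log2 ratio of −0.04, with 45.2% above 0, and mirrored sites −0.31, with 13.2% above 0. Over all 99283 distal C4-2BER H3K18ac peaks that overlapped C4-2B H3K18ac, the median was −0.11. The H3K18ac level thus leaned toward the line that held H3K27ac at members and at mirrored sites alike. Because members were picked for H3K27ac in C4-2BER and the lists of a line may share an input library, the part of local background in this lean was not tested.

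Changes of H3K18ac by a ratio of 2 were rare. At members, 207 (1.68%, interval 1.47 to 1.92) were at least 2-fold higher in C4-2BER, against 0.934% of the 36623 distal C4-2BER H3K27ac peaks with H3K18ac in both lines. At least 2-fold lower were 30 members (0.244%, interval 0.171 to 0.348), against 0.538%. Mirrored sites showed the opposite split, with 25 higher and 330 lower. These comparison peaks include the members themselves.

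The lean was larger at members with stronger H3K27ac. In the weakest quartile of members by H3K27ac fold, the median H3K18ac log2 ratio was −0.04 and 44.6% were above 0. It was 0.06 in the next quartile, 0.19 in the one above and 0.38 in the strongest quartile, where 89.8% were above 0. The median C4-2B H3K18ac fold stayed between 2.74 and 2.84 across the quartiles, while that of C4-2BER went from 2.71 to 3.7. Across the 12312 members, which share 4 pooled libraries, the Spearman rho of H3K27ac fold was 0.52 with C4-2BER H3K18ac and 0.07 with C4-2B H3K18ac.

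**Figure D2:**
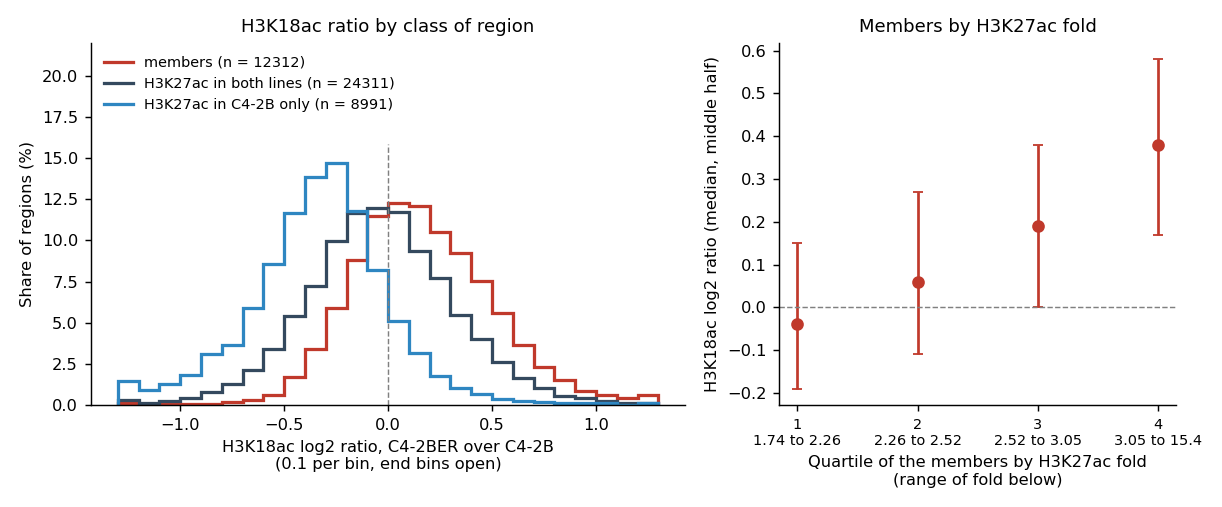
Left, share of regions (%) by H3K18ac log2 ratio of C4-2BER over C4-2B at members, shared sites and mirrored sites; right, the median (point) and interquartile range (bar) of that ratio in each quartile of the members by H3K27ac fold. The members sit to the right of the shared sites and the mirrored sites to the left, and the median of the members goes from −0.04 in the weakest quartile to 0.38 in the strongest.

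Single members reached larger differences. Among members in the highest quartile of H3K27ac fold, the largest H3K18ac log2 ratio was 1.82, at a site 4562 bp from RANBP9, a scaffold protein, with 2.53 in C4-2B against 8.92 in C4-2BER. It was followed by sites with 1.77, 470286 bp from CDH12, and with 1.74, 354052 bp from GLUD2. The smallest was −1.28 in an exon near PRDX5, a peroxiredoxin, where H3K18ac read 5.76 in C4-2B against 2.37 in C4-2BER. Next were sites near ANO10 with −1.16 and CROCC, the ciliary rootlet protein rootletin, with −1.10. The lowest 3 sat at wide C4-2B H3K18ac peaks of 27785, 4480 and 6874 bp and within 2021 bp of a C4-2B H3K27ac peak. The highest 3 sat on narrow ones of 257 to 654 bp.

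The C4-2B H3K18ac peak under the member held no C4-2B H3K27ac anywhere in 11303 cases (91.8%, interval 91.3 to 92.3). The rule already excludes overlap between a member and C4-2B H3K27ac. This share is therefore partly set by the rule, and no background share stands beside it. The other 1009 members (8.2%) lay in a C4-2B H3K18ac peak that carried H3K27ac elsewhere. Those C4-2B peaks were wide, with a median of 6874 bp against 819 bp, and their members had a lower H3K27ac fold (2.28 against 2.56) and a lower H3K18ac log2 ratio (−0.11 against 0.16). The nearest C4-2B H3K27ac peak lay at a median of 9945 bp from a member (interquartile range 3608 to 26694 bp). It was under 1 kb away at 366 members (2.97%), 1 to 5 kb away at 3660 (29.7%), and 100 kb or more away at 744 (6.04%). The median member was covered over 86.3% of its length by C4-2B H3K18ac and over 100% by C4-2BER H3K18ac. Full cover was found at 32.9% of members in C4-2B and at 76.6% in C4-2BER.

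The same question was asked from the side of H3K18ac. In C4-2B, 73329 distal H3K18ac peaks had no H3K27ac and overlapped C4-2BER H3K18ac, and 12837 of them carried H3K27ac in C4-2BER (17.5%, interval 17.2 to 17.8). A member overlapped 11336 of them (15.5%). In the exchanged direction the share was 7670 of 64966 (11.8%, interval 11.6 to 12.1). The share that gained H3K27ac was larger at high parental H3K18ac fold, with 14.4% in the lowest decile and 28.1% in the highest decile, where folds ran from 3.29 to 6.37. The exchanged direction had the same trend, from 7.9% to 22.8%, so it was not particular to the gained sites. Among peaks of one width class, 501 to 854 bp, it was 12.7% in the lowest quintile of fold and 24.1% in the highest, with 12.8 to 14.9% between. The share also changed with base composition. It was highest, 24.4%, in the second decile of GC content and was lower in each following decile, down to 8.33% in the decile of highest GC, which began at 59.1%. The exchanged direction had 16.1% in the lowest decile of GC, 8.74% in the sixth decile and 18.3% in the highest.

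**Figure D3:**
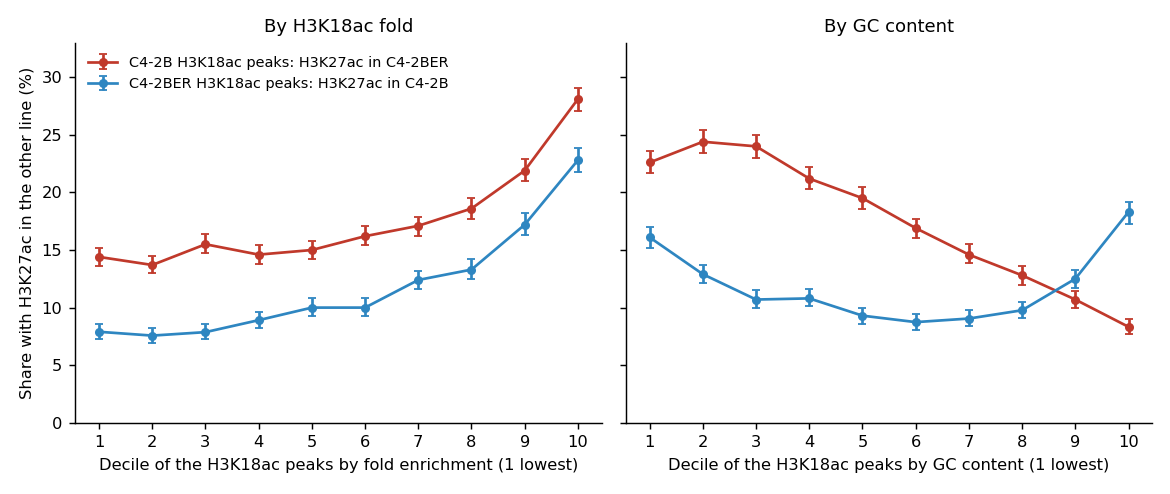
Share (%) of distal H3K18ac peaks, without H3K27ac in their own line and with H3K18ac in both lines, that carried H3K27ac in the other line, by deciles of H3K18ac fold (left) and of GC content (right); bars are 95% Wilson intervals, which cover counting error only. The C4-2B peaks (red) gained H3K27ac more often in the highest decile of fold (28.1%) and least often in the highest decile of GC (8.33%), while the exchanged direction (blue) was U-shaped over GC.

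Base composition also separated members from mirrored sites. The median GC content was 50.9% at members, 49.5% at shared sites and 55.1% at mirrored sites. In 10 groups of GC set on all distal C4-2BER H3K27ac peaks, there were 1.67 members per mirrored site in the lowest group, 2.55 in the fifth and 0.398 in the highest, above 58% GC. The 1.37 members per mirrored site over all regions therefore did not hold in DNA of the highest GC content. The median H3K18ac log2 ratio was higher at members than at shared sites in all 10 groups. It was 0.25 against 0.08 in the lowest group and −0.08 against −0.18 in the highest. The part of GC-dependent library preparation in these values was not tested.

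Motif letters were nearly as frequent at members as at shared sites. In the central 500 bp, on both strands, 16 motifs were searched, and the share at shared sites was reweighted to the GC content of the members. TGANTCA (AP-1) was found in 14.7% of members (interval 14.1 to 15.4) and 14.9% of shared sites. CATTGTT (SOX) was found in 5.9% and 6.05%, GCGTGAC (PAX5 core) in 1.53% and 1.52%, and ATGCAAAT (POU) in 2.34% and 2.3%. The widest differences were 2.3 percentage points fewer for GGGCGGG (SP and KLF; 5.49% against 7.8%), 2.1 fewer for AGAACA (androgen receptor half-site; 26.6% against 28.8%), and 1.4 fewer for TGTTTAC (forkhead; 9.39% against 10.7%). CAATAAA (HOX) was 1.1 points more frequent (9.88% against 8.74%). Of the 16 motifs, that HOX match in the FKBP1C window was the only one in the 3 printed sequences. A match to letters is a description of the sequence and not a bound site.

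The strongest members lay near genes of varied function. The highest fold, 15.4, was found in an intron of SEMA5A, a semaphorin that guides axons. H3K18ac there was 2.96 in C4-2B and 8.39 in C4-2BER, and the nearest C4-2B H3K27ac peak was 155578 bp away. A site in an exon near ADD2, the membrane skeleton protein beta-adducin, had 13.3, with H3K18ac of 3.33 in C4-2B and 5.37 in C4-2BER. A site in an intron of the pseudogene GUSBP1, whose nearest protein-coding gene is the cadherin CDH12 470286 bp away, had 13.1, with H3K18ac of 2.58 and 8.79. The fourth lay between genes on chromosome X, 354052 bp from the nearest protein-coding one, GLUD2, a glutamate dehydrogenase. It had 11.3, with H3K18ac of 2.96 and 9.9.

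The sites nearest to FKBP1C and to the kinase gene RPS6KA1 both had an H3K27ac fold of 11. Others of the first 10 lay 668930 bp from CCDC179 with 10.7 and in an intron of ENSG00000273291 with 9.87. Another, near GLYATL2, an acyltransferase, had 9.35. All of the 10 strongest members had more H3K18ac in C4-2BER, with log2 ratios from 0.69 at ADD2 to 1.77 at CDH12. Their C4-2B H3K18ac ran from 2.28 to 3.82, the 10.5 to 83.6 percentile of that list, and lay in narrow peaks of 219 to 409 bp. Promoter H3K27ac of the named genes gave no common pattern, as CDH12, GLUD2, FKBP1C and CCDC179 had no promoter peak in either line and RPS6KA1 had 33.7 in C4-2B against 25.3 in C4-2BER.

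Members were spread over the genome with a few dense loci. Each member was assigned to the nearest protein-coding TSS, which gave 5991 genes with at least 1 member, 459 with at least 5 and 78 with at least 10. Introns held 53.3% of members, 36.8% lay outside genes and 9.9% touched an exon, against 16.5% of shared sites. Any overlap with an exon counted, and shared sites were wider, with a median of 1344 bp against 703 bp. The part of width in this difference was not tested. The median distance to a TSS was 15354 bp. On chromosomes 1 to 22 and X, density ran from 1.37 members per Mb on X and 2.12 on chromosome 4 to 6.11 on chromosome 17. Members were 16.5%, 20.2% and 25.2% of the distal C4-2BER H3K27ac peaks there, against 25.9% over all such peaks. The densest chromosome was thus near the value over all peaks. Within 12.5 kb of another member lay 3248 members (26.4%), and 23 clusters held 5 or more. The same share was not computed for other peaks, so no background stands beside it. The widest clusters held 8 members over 53.2 kb at TSHZ3 and 8 over 46.5 kb at MME, the peptidase neprilysin.

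NCAM2, a neural cell adhesion molecule, had the most members. Counts of members partly follow how many H3K27ac peaks a locus holds, so they are read beside 25.9%, the share of members among all distal C4-2BER H3K27ac peaks. NCAM2 was the nearest gene of 137 such peaks, and 43 of them (31.4%) were members, of which 24 lay in the gene body, with 34 shared and 4 mirrored sites beside them. Folds at these members ran from 2.11 to 8.86 with a median of 3.25, and 40 of the 43 had more H3K18ac in C4-2BER, with a median log2 ratio of 0.36. The NCAM2 promoter itself was acetylated alike in both lines, with an H3K27ac fold of 15.9 against 16.1 in the parental line. Within 300 kb on each side of the gene, which is 545 kb long, the lists held 91 C4-2BER and 39 C4-2B H3K27ac peaks and 133 and 77 H3K18ac peaks. Both marks thus had more peaks here in C4-2BER. The copy number of the locus was not measured here.

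**Figure D4:**
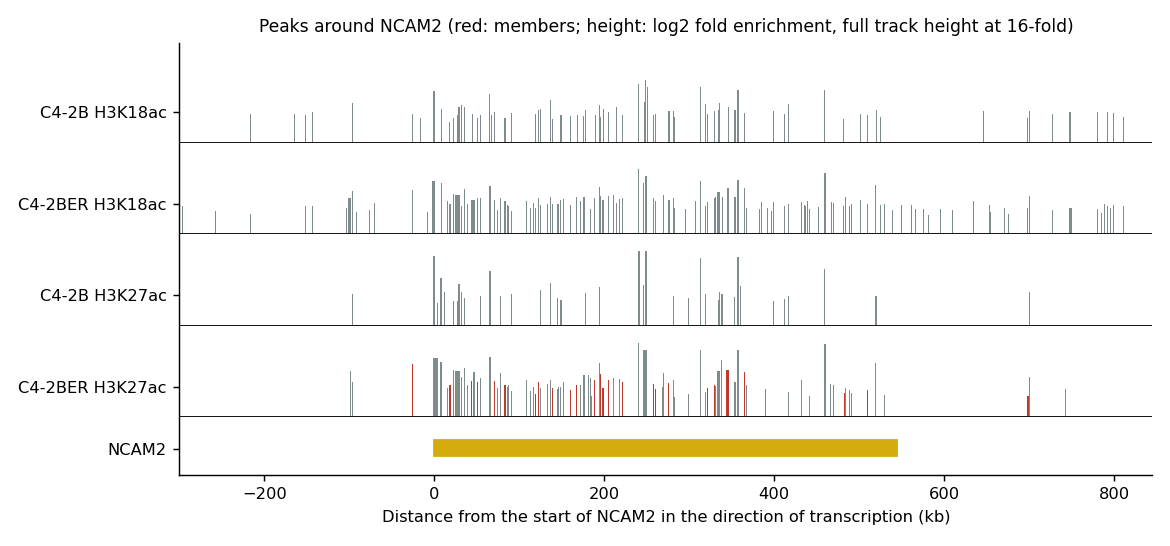
Peaks of the 4 lists around NCAM2, by distance from its start in the direction of transcription (kb); the height of each peak is its log2 fold enrichment and the 26 members in the window are red. The red peaks fall mostly inside the 545 kb gene, at positions with C4-2B H3K18ac and no C4-2B H3K27ac.

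LUZP2, a leucine zipper protein, was nearest to 41 members among 125 distal peaks (32.8%) and to 0 mirrored sites. The folds of its members ran from 2.07 to 8.32, and its promoter H3K27ac read 28.4 in the parental line against 19.3 in C4-2BER. Next came a stretch of chromosome 3. NAALADL2, a relative of the PSMA gene, had 38 members among 138 distal peaks (27.5%) and 15 mirrored sites. TBL1XR1, a subunit of the NCoR and SMRT corepressor complexes, had 37 among 105 (35.2%) and 6 mirrored sites, and NLGN1, a postsynaptic adhesion protein, had 22 among 56 (39.3%) and 2. Median H3K18ac log2 ratios at these loci were 0.15, 0.18 and 0.36. The TBL1XR1 promoter had an H3K27ac fold of 16.5 in the parental line and 7.61 in C4-2BER, a lower value at the gene nearest to these members. Of its 37 members, 5 lay in the gene body, and their median distance was 104 kb.

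The other loci among the first 10 had 17 to 24 members each. At PRKD1 and CCDC179 the members were 24% and 23.9% of the distal peaks, near the value over all peaks. At ZMIZ1 they were 39.1%, at TSHZ3 60.7% (17 of 28) and at BCL11B 63% (17 of 27). PRKD1, protein kinase D1, had 24 members and 1 mirrored site, and ZMIZ1, a transcriptional coactivator, had 18 and 12. Of the ZMIZ1 members 0 lay in the gene, and their median distance was 212 kb. CCDC179, with no promoter H3K27ac in either line, had 17 and 3, all outside the gene and at a median distance of 421 kb. BCL11B, a zinc-finger transcription factor of T cells and neurons, had 17 and 2, and TSHZ3, a teashirt zinc-finger factor, had 17 and 0. Median distances of their members were 313 kb and 20.7 kb. TSHZ3 was the one of the 10 with a promoter H3K27ac ratio past 2 upward, with 6.19 in C4-2B against 14.5 in C4-2BER. The promoters of NAALADL2, TBL1XR1 and ZMIZ1 were past 2 downward. Most members of each of the 10 loci had more H3K18ac in C4-2BER, with median log2 ratios from 0.15 at NAALADL2 to 0.36 at NCAM2 and NLGN1.

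Genes near members did not differ much from all genes in promoter H3K27ac. For each gene, the highest fold within 2 kb of any of its TSSs was taken, and a ratio of 2 or a peak in 1 line alone counted as a change. Of the nearest genes with a promoter peak, 279 of 5076 (5.5%, interval 4.9 to 6.16) were increased in C4-2BER, against 4.69% of all protein-coding genes with such a peak. Decreased were 519 (10.2%, interval 9.42 to 11.1), against 10.7%. Among all genes with a promoter peak in both lines, the median log2 ratio was −0.50, so lower promoter values in C4-2BER were common. Of the 72 genes with a promoter peak and 10 or more members, 6 were increased and 8 decreased. These shares were near the background and are not a result about the members.

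Members were then counted around genes of 7 lists, which partly hold genes that the study discussed for these cell lines. Of all distal C4-2BER H3K27ac peaks, 25.9% (interval 25.5 to 26.3) were members, and each list is read beside that value. Of 111 distal peaks nearest to neuroendocrine and synaptic genes, 39 (35.1%, interval 26.9 to 44.4) were members, and 7 mirrored sites lay there. NLGN1 alone gave 22 of these members, and without it the share was 17 of 55 (30.9%, interval 20.3 to 44). Other genes with a member were CHGB, DDC, PCSK2, SCG2, SNAP25, SYT1 and SYT4, most of which act in secretory vesicles. At SNAP25, a SNARE protein of vesicle fusion, the strongest member had an H3K27ac fold of 5.75, with H3K18ac of 2.82 in C4-2B and 4.02 in C4-2BER. An intronic member of DDC, the decarboxylase that makes dopamine and serotonin, had 5.09, with 3.03 and 5.07.

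Neural and neuroendocrine transcription factors had 27 members of 76 distal peaks (35.5%, interval 25.7 to 46.7) and 18 mirrored sites. The genes were ETV5, FOXA2, KLF12, LMO3, MYT1L, PAX5, PAX6, POU3F4, RUNX3, SOX2, SOX5, SOX6 and ZEB1. MYT1L, a zinc-finger factor of neurons, had 7 members of 14 distal peaks, and the strongest member had a fold of 3.41. PAX5, a paired-box factor of B cells and the developing brain, had 3 members of 6 distal peaks. The strongest member lay in its intron with H3K27ac of 4.18 and H3K18ac of 3.23 in C4-2B and 4.18 in C4-2BER. Within 2 kb of a PAX5 TSS, an H3K27ac peak of 6.35 was found in C4-2B and none in C4-2BER. That value is the highest at any TSS of the gene, and which TSS carried the peak was not examined. The study, in contrast, describes more histone acetylation near the promoter of this gene in the resistant line. The cause of this difference was not tested. The member assigned to KLF12 lay 309990 bp from it and had 4.63, with H3K18ac of 3.29 and 3.68. Of 16 promoters of the list with an H3K27ac peak, 4 were increased and 2 decreased, beside 4.69% and 10.7% over all genes. The 4 increases were weak peaks of 2.32 to 2.62 found in C4-2BER only. The 2 decreases were PAX5 and SOX6, the latter with 23.4 in C4-2B against 11.3 in C4-2BER. The other lists had 1 increased and 3 decreased of 10 (neuroendocrine and synaptic), 3 and 6 of 28 (adhesion and guidance), 1 and 5 of 14 (receptors and channels), 1 and 3 of 12 (receptor tyrosine kinases), and 0 and 2 of 12 (luminal factors).

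Androgen response genes stood at the other end. Of their 151 distal C4-2BER peaks, 15 (9.93%, interval 6.11 to 15.7) were members and 117 were shared, and 77 mirrored sites lay nearest to these genes, which gave 0.195 members per mirrored site against 1.37 over all regions. The mirrored sites were led by STK39 with 13, FKBP5 with 10 and PMEPA1 with 10. Genes with a member included ABCC4, ACP3, NDRG1, PMEPA1, STK39, TMPRSS2 and ZBTB16. The strongest, 12086 bp from TMPRSS2, an androgen-regulated protease, had H3K27ac of 4.06 and nearly equal H3K18ac of 3.49 in C4-2B and 3.46 in C4-2BER. The strongest near NDRG1 had 3.18 and that in ZBTB16, a zinc-finger repressor, 3.16. The median H3K18ac log2 ratio at the 15 members was 0.06, and of the promoters in the list 0 were increased and 1 was decreased.

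Luminal transcription factors had 25 members of 106 distal peaks (23.6%, interval 16.5 to 32.5), near the value for all peaks. They lay at EHF, ELF3, GATA2, GATA3, GRHL2, NR2F1, NR2F2, SPDEF and TFAP2A. GRHL2, an epithelial grainyhead factor, had 6 of 36 distal peaks. A member 298980 bp from NR2F2, the orphan receptor COUP-TFII, had H3K27ac of 4.51 and H3K18ac of 2.21 in C4-2B and 4.46 in C4-2BER. The strongest assigned to TFAP2A lay 512332 bp from it and had 3.55, and that in GRHL2 had 3.54.

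Neuronal adhesion and axon guidance genes had 78 members of 276 distal peaks (28.3%, interval 23.3 to 33.8) and 63 mirrored sites. Among the 21 genes with a member, SEMA3C, a secreted semaphorin, had 16 members of 32 distal peaks. PLXNA4, a semaphorin coreceptor, had 14 of 20. SLIT3, a ligand of the ROBO receptors, had 8 of 14, and TNC, the matrix protein tenascin C, had 6 of 10. EFNA5 held 81 of the 276 distal peaks, of which 5 were members. Without SEMA3C the share of the list was 62 of 244 (25.4%, interval 20.4 to 31.2). The strongest member nearest to TNC had H3K27ac of 4.98 with H3K18ac of 3.2 in C4-2B and 5.16 in C4-2BER, and promoter H3K27ac at TNC was 6.29 in C4-2BER with no peak in C4-2B. PLXNA4 likewise had a weak promoter peak, 2.13, in C4-2BER only. The ephrin receptor genes EPHA3 and EPHA7 had lower promoter values there, with 10.7 in C4-2B against 3.59 and with 6.36 against 2.27. Promoter peaks of SEMA6D (5.04) and ROBO2 (2.55) were found in C4-2B only. The strongest member assigned to SEMA3C lay 344063 bp from it and had 4.7, and that in SLIT3 had 4.31. The other genes of the list with a member were CADM1, CNTNAP2, DAB1, EFNA5, EFNB2, EPHA3, EPHA4, EPHA5, EPHA7, EPHB1, NFASC, NTN1, NTN4, RELN, ROBO2, SEMA6D and SLIT2.

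Glutamate and GABA receptors and potassium channels had 23 members of 95 distal peaks (24.2%, interval 16.7 to 33.7) and 49 mirrored sites. A member 170737 bp from GRIN2B, an NMDA receptor subunit, had the highest fold of the list, 6.53, with H3K18ac of 2.7 in C4-2B and 5.16 in C4-2BER. The strongest member assigned to the metabotropic glutamate receptor gene GRM7 lay 298889 bp from it and had 3.93. That in the GABA receptor gene GABRG3 had 3.83. KCNMA1, a calcium-activated potassium channel, had 3 members of 24 distal peaks beside 24 mirrored sites. Its promoter H3K27ac read 32.1 in the parental line against 3.34 in C4-2BER. Members also lay at GRID1, GRIK2, GRIK4, GRM8, KCND2, KCNH1, KCNIP1 and KCNQ5.

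Receptor tyrosine kinases and their ligands had 28 members of 127 distal peaks (22%, interval 15.7 to 30) and 35 mirrored sites. An intronic member of NTRK2, the neurotrophin receptor TrkB, had H3K27ac of 6.08 with H3K18ac of 3.05 in C4-2B and 5.23 in C4-2BER, and it lay 53510 bp from the nearest C4-2B H3K27ac peak. The strongest member assigned to NTRK3 lay 362130 bp from it and had 4.34. That assigned to KIT, the stem cell factor receptor, lay 119825 bp away and had 3.71. EGFR had 5 members of 29 distal peaks beside 14 mirrored sites, whereas FGFR2 had 5 of 9 beside 1. The rest lay at ERBB4, FGFR1, IGF1R, MET, NRG1, NRG3 and PDGFRA. Across the 7 lists, the intervals for the neuroendocrine and synaptic list and for the androgen response list did not include 25.9%. For the neuroendocrine and synaptic list this rested on NLGN1, without which the interval was 20.3 to 44 and 17 members stood beside 5 mirrored sites. These intervals treat peaks of one gene as independent, cover counting error only, and give no comparison between lists.

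**Figure D5:**
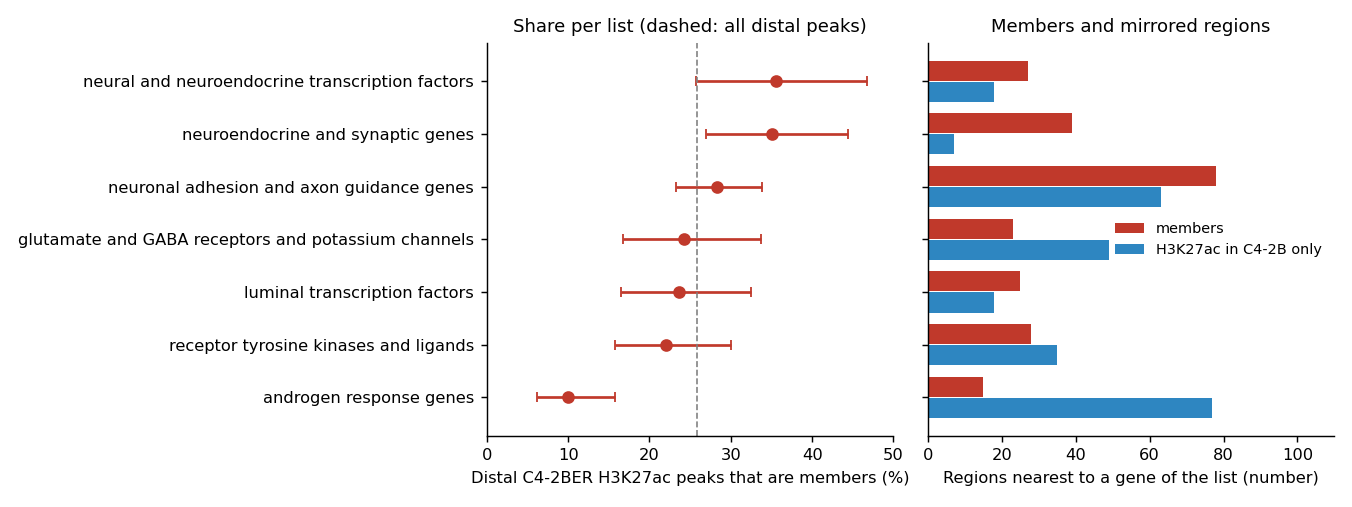
Left, share (%) of the distal C4-2BER H3K27ac peaks nearest to genes of each list that are members, with 95% Wilson intervals for counting error and 25.9% over all distal peaks as the dashed line; right, the number of members (red) and of mirrored sites (blue) per list. The androgen response list has the lowest share, 9.93%, with 15 members beside 77 mirrored sites, and the neuroendocrine and synaptic list has 39 beside 7.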

How the data were processed

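H3K27ac and H3K18ac ChIP-seq of C4-2B and C4-2BER was analysed from the 4 peak lists the authors deposited. Reads had been aligned to GRCh38 (hg38) with bowtie2. The submitters' processing notes name bcl2fastq 2.17, Trimmomatic 0.33, Bowtie2 2.2.3, Picard and deepTools. Blacklisted regions, poorly mapped reads and duplicates had been removed, replicates merged and peaks called with macs2 by the authors, and whether the input libraries were used in that step is not given in the sources used here. Reads that map to several places are lost by such a filter, so repeated DNA is measured less well. For each peak the authors give a fold enrichment, the ratio of ChIP signal to local background, together with its −log10 p-value and q-value. Folds of separate lists were not put on a common scale by the authors, and ratios of them also reflect unequal background and pull-down.

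Every peak lay on an autosome, X or Y, and none was dropped. TSSs were those of every transcript in GENCODE release 44, and distances were measured from the nearest edge of a peak. The H3K18ac value of a region was the mean fold of the overlapping peaks weighted by length of overlap. A ratio of 2 counted as a change. Intervals are 95% Wilson intervals for shares and order-statistic intervals for medians. They cover counting error or spread over regions only, since regions are not replicates. Background height was taken from peaks under 320 bp wide whose −log10 p-value was below 6. Named sites were the 10 genes with the most members, the 10 members of highest fold, the 3 highest and 3 lowest H3K18ac ratios in the highest quartile of H3K27ac fold, and list genes with a member. CHGA, SCG3, SRRM4, INSM1, ENO2, SYP, CHRNB2, CELF3, KLK2, FKBP5 and MME are outside that rule and were named after their values were seen. Sequences were the central 300 bases of strong members without an exon, and those with a repeated run of 24 bases were left out after they were seen. A few named genes and sequences that fall under these rules are not reported here. A planned share of annotated repeats could not be computed because the sequence carries no repeat mask, and counts of 24-base runs were used in its place, chosen after seeing the data. The members and lists were chosen with earlier results of these data known. Overlaps, weighted values, background height and run counts were tested on simulated data. Python 3.11.15, numpy 2.4.6, pandas 2.3.3, scipy 1.17.1, pysam 0.24.0 and matplotlib 3.10.9 were used. The other assays of the study were not analysed here.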

Additional observations from a re-analysis of the deposited data

How the results depend on the processing

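No paired analysis was possible because each list pools the replicates of a mark and line, and no replicate could be left out for the same reason. The 7 alternatives to the rule and 2 to the H3K18ac ratio were planned. Of 37 values, 8 stayed within the limits of the reported ones, 28 moved and 1 reversed. With H3K27ac peaks under 3-fold dropped from both lists, there were 5751 members, against 3270 members of at least 3-fold under the reported rule. A dropped C4-2B peak counts as absent, so the larger number includes sites that overlap a weaker C4-2B H3K27ac peak. Members per mirrored site went from 1.37 to 0.982 (0.947 to 1.02). It counted as reversed on the point value, although the interval includes 1. The median H3K18ac log2 ratio at the members of this setting was 0.31. Of these members, 97.9% lay in a C4-2B H3K18ac peak without H3K27ac of at least 3-fold. At that cut, 8.93% of eligible H3K18ac peaks gained H3K27ac. With a −log10 q of at least 5, which drops weaker C4-2B peaks in the same way, the values were 7384, 2.01, 0.27, 98% and 10.7%. The other settings kept the number of members within 1.5 times. The remaining 4 values, in the same order, were 1.1, 0.17, 92.4% and 15.7% with equal list sizes, and 1.17, 0.13, 90.7% and 19.5% with 50% of the peak covered by H3K18ac. They were 1.42, 0.15, 93.8% and 17.1% with no C4-2B H3K27ac within 1 kb. With more than 5 kb to a TSS the last 3 were 0.15, 93.1% and 16.9%, and with 1 TSS per gene 0.13, 91.1% and 17.9%. Less the median over distal H3K18ac peaks, the H3K18ac log2 ratio was 0.26. The cause of these differences was not tested. The median H3K18ac log2 ratio stayed above 0 under all 9 alternatives. Unknown depth limits every absence of a peak.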
